A study of Mus musculus with 11 samples.

Results

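Fcrls and the receptors for the Fc part of IgG were followed across 3 groups of mouse kidneys. They are 7 genes of the 24914 names in each library's count file, taken by name: Fcrls, Fcgr1, Fcgr2b, Fcgr3, Fcgr4, Fcer1g and Fcgrt. The set was chosen by measured values: the CPM of Fcrls stood out when knockout kidneys given PBS were compared with heterozygous kidneys, so values of that comparison are given as a description, with no test. All groups were 129X1/SvJ mice aged 5.5 weeks, and whole-kidney messenger RNA was sequenced. The first group was Col4a3+/- and received PBS (HET PBS, n = 3 libraries). The second was Col4a3-/- and received PBS (KO PBS, n = 4). The third was Col4a3-/- and received antimiR-21, which blocks the microRNA miR-21 (KO antimiR-21, n = 4). Col4a3 encodes a chain of the type IV collagen of the glomerular basement membrane, and its loss models Alport syndrome, an inherited kidney disease. The control mice carry 1 mutant allele, and no group of antimiR-21-treated heterozygotes or of wild-type mice was analysed here. Nor was a group given a control oligonucleotide.

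Fc gamma receptors on macrophages and other leukocytes bind IgG in immune complexes. The activating receptors signal through the gamma chain encoded by Fcer1g, whose ITAM (a tyrosine motif) recruits the kinase Syk. Fcgr2b is the inhibitory receptor and carries an ITIM, which recruits the phosphatase encoded by Inpp5d. Fcrls is a related, Fc receptor-like gene best known as a marker of mouse microglia. Fcgrt encodes the neonatal Fc receptor, which is structurally apart from the others and in the kidney serves to recycle or transport IgG and albumin in podocytes and proximal tubule.

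Levels are in CPM (counts scaled to a common depth, corrected between libraries by TMM). Library depth was 22.4 to 49.7 M counts as deposited, and 17.9 to 39.7 M after names with identical counts were joined. The targeted gene shares all its counted reads with its neighbour Col4a4, and this joint locus stood at 870 to 1271 CPM in HET PBS, 607 to 997 in KO PBS and 515 to 809 in KO antimiR-21, so it does not check the genotype labels library by library. KO PBS replicate 1 had the highest summed macrophage markers of all libraries, at 462 CPM. Y-linked reads were present in 2 of the 3 HET PBS libraries, in 2 of the 4 given PBS as knockouts, and in 1 of the 4 treated ones. In whole-kidney RNA, a change in the number of cells and a change in the RNA per cell cannot be told apart. The labels do not say that replicates are separate animals, so p-values measure the spread between these libraries.

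The antimiR-21 oligonucleotide acts on miR-21a-5p, shown with its seed (bases 2 to 8) in capitals because the treatment is aimed at it. It is encoded at chr11:86584120-86584141 on the minus strand (GRCm38.p6).
mmu-miR-21a-5p: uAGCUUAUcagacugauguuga
The 7-base match to this seed, ATAAGCT, was looked for in each gene's longest 3 prime UTR. None of the 7 receptor genes held it, in UTRs of 256 to 2397 bases, and 0 of their other annotated transcripts did. Of 21153 genes with an annotated 3 prime UTR, 7.49% held it. No match says only that these letters are not in these windows.

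Fcrls, Fcer1g and Fcgr3 are the members whose levels differ most between groups or follow the macrophage markers most closely, and their promoters are shown, from 250 bases before to 50 after the start of transcription, on the strand of the gene. Capitals mark GAGGAA, a purine box of the type bound by the myeloid factor PU.1, or its reverse complement. The sequences are from RefSeq on GRCm38.p6, which holds all 7 genes.
Fcrls, chr3:87263475-87263774, minus strand: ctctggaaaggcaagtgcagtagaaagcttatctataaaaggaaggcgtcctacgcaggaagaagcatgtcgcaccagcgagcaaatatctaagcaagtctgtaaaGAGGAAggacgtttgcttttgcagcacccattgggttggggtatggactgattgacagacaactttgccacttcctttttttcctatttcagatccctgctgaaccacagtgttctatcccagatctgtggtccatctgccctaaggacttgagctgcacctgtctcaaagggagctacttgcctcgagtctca
Fcer1g, chr1:171234300-171234599, minus strand: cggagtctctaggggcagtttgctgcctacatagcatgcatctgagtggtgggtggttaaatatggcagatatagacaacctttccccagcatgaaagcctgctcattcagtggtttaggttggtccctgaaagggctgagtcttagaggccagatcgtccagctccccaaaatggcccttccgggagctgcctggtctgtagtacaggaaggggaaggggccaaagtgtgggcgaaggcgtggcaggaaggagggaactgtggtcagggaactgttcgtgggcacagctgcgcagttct
Fcgr3, chr1:171059354-171059653, minus strand: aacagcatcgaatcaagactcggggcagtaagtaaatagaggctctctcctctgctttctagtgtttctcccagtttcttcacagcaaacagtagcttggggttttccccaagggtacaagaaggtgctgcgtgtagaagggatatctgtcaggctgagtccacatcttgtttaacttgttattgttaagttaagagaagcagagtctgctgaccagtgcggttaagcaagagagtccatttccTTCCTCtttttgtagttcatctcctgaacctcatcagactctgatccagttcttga
GAGGAA was found on either strand in the promoters of 4 of the 7 genes, against 28.3% of the 27025 promoters searched. It lay 144 bases before the start in Fcrls on the strand of the gene, and on the opposite strand 6 bases before the start in Fcgr3, 22 in Fcgr4 and 55 in Fcgr1. TTCNNNGAA, a gamma activated site, was found in Fcgr1 alone, 109 bases before the start (8.47% of all promoters), and TGANTCA, an AP-1 site, in none of the 7 (7.93%). Both strands were searched for each motif. A match is a description of the letters and not a binding site.

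The locations are those of GENCODE vM21 on GRCm38. Fcrls lies on the minus strand of chr3:87250758-87263738, and its nearest protein-coding gene is 76011 bases away. Fcgr2b (chr1:170958617-170976547, minus strand), Fcgr4 (chr1:171018920-171029761, plus strand), Fcgr3 (chr1:171051174-171064935, minus strand) and Fcer1g (chr1:171229572-171234365, minus strand) form a cluster on chromosome 1. Fcgr1 lies on the minus strand of chr3:96282909-96293969. Its count was identical to that of the histone gene Hist2h2bb, 12777 bases away, in every library, so the reads of this joint locus cannot be assigned to either gene. Fcgrt lies at chr7:45092990-45103851 on the minus strand. Fcgr2b and Fcgrt each overlap an antisense gene (Gm38204 and Gm45669), whose reads cannot be told apart by a kit that does not mark strand. Of the 50-base stretches in Fcgr3 transcripts, 9.58% also occur in Fcgr2b transcripts, and no other pair of the 7 shares any. How such reads were counted is not given in the sources used here, so the split between these paralogs is uncertain.

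Fcrls, the microglial marker, was lowest in HET PBS kidneys and highest in KO antimiR-21 kidneys. In HET PBS, replicates 1 to 3 stood at 0.343, 0.384 and 0.267 CPM. The KO PBS replicates 1 to 4 stood at 3.31, 2.10, 1.76 and 1.01 CPM. The KO antimiR-21 replicates stood at 5.14, 6.41, 4.81 and 3.21 CPM. Every knockout library lay above every heterozygous one, and 3 of 4 KO antimiR-21 libraries lay above all KO PBS libraries, with replicate 4 just under KO PBS replicate 1. Group means were 0.331 ± 0.0597 (SD, n = 3), 2.04 ± 0.956 (SD, n = 4) and 4.89 ± 1.32 CPM (SD, n = 4). These levels rest on few reads: 6.5 to 13.5 estimated counts per HET PBS library, 25.5 to 72 per KO PBS library and 60 to 116.5 per KO antimiR-21 library. No HET PBS library reached the 0.497 CPM of the filter on low values, which Fcrls passed through the knockout groups where it is high. All 7 members passed that filter.

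**Figure D1:**
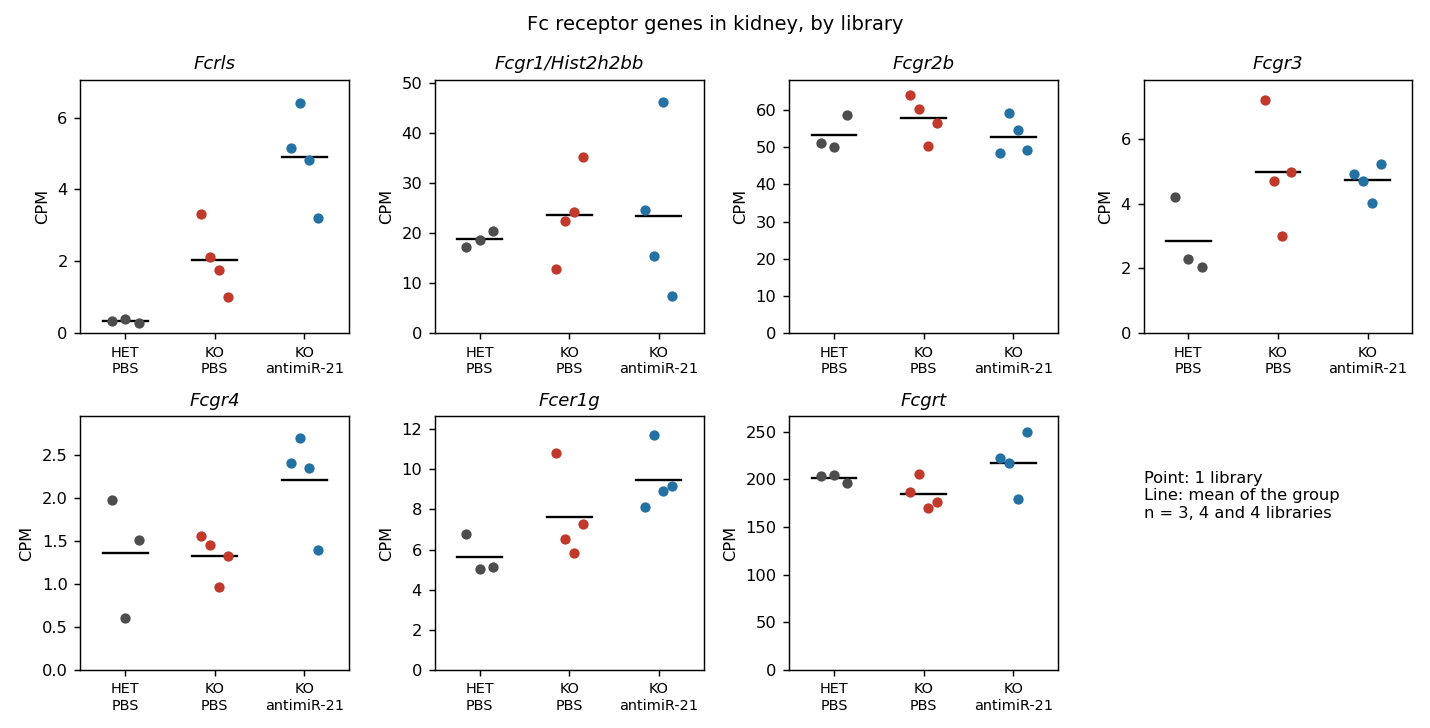
CPM of each Fc receptor gene (vertical axes, from 0) in every library of the 3 groups. Each point is 1 library and each line the mean of its group. Fcrls goes from 0.331 CPM in HET PBS to 4.89 in KO antimiR-21, while Fcgr2b stays between 48.4 and 64.2 in all libraries.

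Among the activating receptors, Fcgr3, the low-affinity receptor for IgG complexes, was at 4.21, 2.31 and 2.04 CPM in HET PBS. It was at 7.21, 4.71, 2.996 and 4.97 CPM in KO PBS and at 4.92, 4.70, 4.03 and 5.25 in KO antimiR-21. The knockout groups overlapped each other, and 3 of 4 libraries of each lay above HET PBS replicate 1, the highest heterozygote. Fcgr4, an activating receptor for IgG2a and IgG2b complexes, was at 1.97, 0.604 and 1.51 CPM in HET PBS, 1.56, 1.45, 0.969 and 1.32 in KO PBS, and 2.41, 2.71, 2.36 and 1.39 in KO antimiR-21. It did not separate KO PBS from HET PBS, and 3 of 4 KO antimiR-21 libraries lay above all others. The joint locus of Fcgr1, the high-affinity IgG receptor, and Hist2h2bb was at 17.3 to 20.4 CPM in HET PBS, 12.8 to 35.2 in KO PBS and 7.33 to 46.3 in KO antimiR-21. Its spread was widest in the treated group, and the Pearson r of its log2 CPM with the macrophage markers was -0.24 over 11 libraries. With 5 other histone loci r was 0.75 (Hist2h3c1), 0.62 (Hist2h4), 0.17 (Hist2h2be), -0.05 (Hist1h1c) and -0.35 (Hist1h2bc/Hist1h2bg).

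Fcer1g, the signalling chain, was at 6.78, 5.05 and 5.11 CPM in HET PBS. It was at 10.8, 6.51, 5.82 and 7.26 CPM in KO PBS and at 8.14, 11.7, 8.93 and 9.15 in KO antimiR-21. All 4 KO antimiR-21 libraries lay above all HET PBS libraries, whereas KO PBS overlapped both groups.

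Fcgr2b, the inhibitory receptor, had group means of 53.4 ± 4.69 (SD, n = 3), 57.8 ± 5.87 (n = 4) and 52.9 ± 5.05 CPM (n = 4), and all groups overlapped. Fcgrt was the most abundant member, at 197 to 205 CPM in HET PBS, 170 to 206 in KO PBS and 179 to 250 in KO antimiR-21. The groups overlapped here too, and 3 of 4 KO antimiR-21 libraries lay above every KO PBS library.

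Divided by the length of all annotated exons, the levels can be set side by side, leaving out Fcgr1. In HET PBS, Fcgrt was at 95.9 CPM per kb, Fcgr2b at 9.22, Fcer1g at 6.46, Fcgr3 at 1.64, Fcgr4 at 1.09 and Fcrls at 0.142. Fcgr3 and Fcgr4 overlapped in that group, whereas Fcrls lay under the lowest Fcgr4 library. In KO PBS, Fcrls was at 0.876 ± 0.410 CPM per kb (SD, n = 4) and overlapped Fcgr4 at 1.06 ± 0.205. In KO antimiR-21, Fcrls was at 2.10 ± 0.564 CPM per kb, between Fcgr3 at 2.72 ± 0.297 and Fcgr4 at 1.76 ± 0.454, with ranges that overlapped both. Fcer1g (10.9) and Fcgr2b (9.13) overlapped in that group.

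Untreated knockouts were first set against heterozygotes, which asks what loss of Col4a3 does to the kidney. Of the 7 members, 1 (Fcrls) was higher in KO PBS without overlap, against 3.55% of the 14380 tested loci (6.76% in either direction), and nothing is read from this because the comparison chose the set. The log2 difference was 2.58 for Fcrls (SE 0.423), 0.80 for Fcgr3 (SE 0.310) and 0.43 for Fcer1g (SE 0.225). It was 0.34 for the Fcgr1 joint locus, 0.12 for Fcgr2b, -0.02 for Fcgr4 and -0.12 for Fcgrt. The median of all tested loci was -0.015. Across all loci edgeR called 0 (0%), with 4.21% of loci higher and 2.73% lower at an unadjusted p under 0.05, while DESeq2 called 84 and limma-voom 0. Within libraries with Y-linked reads, mean Fcrls was 1.39 CPM in KO PBS and 0.326 in HET PBS. Within those without, it was 2.70 and 0.343 CPM.

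Treated knockouts were next set against those given PBS, which asks what antimiR-21 treatment does in the diseased kidney. An effect of blocking miR-21 and one of giving an oligonucleotide cannot be told apart here. None of the 7 members passed the adjusted threshold of 0.05, where edgeR's quasi-likelihood test called 0 of 14380 loci (0%), and none was separated without overlap (2.34% of loci were higher without overlap, and 4.28% were separated in either direction). At an unadjusted p under 0.05 edgeR found 684 loci higher (4.76%) and 497 lower (3.46%), DESeq2 called 126 loci after adjustment and limma-voom 0. Fcrls was at a 2.40-fold level in KO antimiR-21, a log2 difference of 1.26 (SE 0.325, 95% interval 0.55 to 1.97, adjusted p = 0.334 by edgeR). DESeq2 called this difference (1.26, adjusted p = 0.0396). The KO PBS values of Fcrls helped to choose the set, so neither result is an independent test. Within libraries with Y-linked reads, Fcrls was at 3.21 CPM in the 1 treated library and 1.39 in KO PBS. Within those without, it was 5.45 CPM in treated and 2.70 in KO PBS.

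The other members differed less between treated and untreated knockouts. Fcgr4 had a log2 difference of 0.74 (SE 0.344, 95% interval -0.01 to 1.49, edgeR adjusted p = 0.612). Fcer1g differed by 0.32 (SE 0.206, adjusted p = 0.758) and Fcgrt by 0.23 (SE 0.102, adjusted p = 0.589). For Fcgr2b (-0.13), Fcgr3 (-0.07) and the Fcgr1 joint locus (-0.01) the differences were near 0. The sign for Fcgr3 was not stable, since it was at 5.25 against 3.98 CPM within libraries with Y-linked reads and 4.55 against 5.96 within those without. Without KO PBS replicate 1, the library highest in macrophage markers, its difference became 0.16.

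KO antimiR-21 was also compared with HET PBS, which asks how far treated knockouts stand from heterozygotes. For Fcrls it is not an independent test, because the HET PBS values helped to choose the set and Fcrls passed the filter on low values in no HET PBS library. With that limit, Fcrls stood 14.3-fold higher in KO antimiR-21 (95% interval 7.50 to 27.4), a log2 difference of 3.84 (SE 0.428, edgeR adjusted p = 0.0201). The share of loci called was 0.00695%, which is Fcrls itself, 1 of 14380. Fcrls and Fcer1g, 2 of the 7 members, were higher without overlap, against 3.88% of loci (5.98% in either direction). Fcer1g had a log2 difference of 0.75 (SE 0.227, edgeR adjusted p = 0.493), Fcgr3 0.73 (SE 0.311, adjusted p = 0.595) and Fcgr4 0.72 (adjusted p = 0.614). The Fcgr1 joint locus differed by 0.32, Fcgrt by 0.11 and Fcgr2b by -0.01. Split by Y-linked reads, Fcgr3 was at 5.245 CPM in the 1 treated library with them and 2.175 in HET PBS. In libraries without them it was at 4.547 CPM in treated and 4.206 in the 1 HET PBS library. Fcer1g was at 9.151 against 5.08 CPM with Y-linked reads and 9.597 against 6.781 without. The Fcrls call was lost with limma-voom (adjusted p = 0.0782). It was also lost when any 1 of 7 libraries was left out, with adjusted p up to 0.245 without HET PBS replicate 2 and log2 differences between 3.69 and 4.0.

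**Figure D2:**
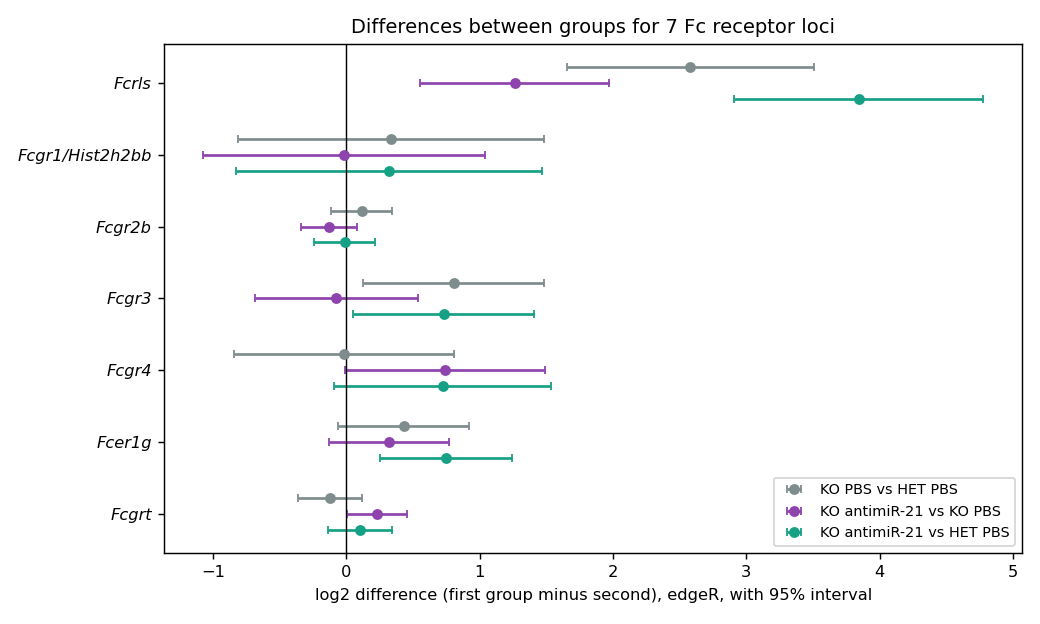
Log2 differences (horizontal axis, first group minus second) of the 7 loci in the 3 comparisons, from edgeR over all 11 libraries. Points are estimates and bars 95% intervals. KO PBS against HET PBS chose the set, so its bars are a description and not a test. The Fcrls difference of KO antimiR-21 from HET PBS, 3.84, lies farthest from 0, and that of KO antimiR-21 from KO PBS is 1.26. The HET PBS and KO PBS values of Fcrls helped to choose the set, so neither of these is an independent test.

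The macrophage markers were also higher in most knockout libraries, and their part in the receptor results was not tested. Of 25 listed markers 24 were tested, and none was at 0 in all libraries. Summed over the 23 that are no joint locus, they stood at 158 to 253 CPM in HET PBS, 216 to 462 in KO PBS and 304 to 340 in KO antimiR-21. In KO PBS against HET PBS 23 of 24 had a positive difference (median 0.58), against 46.5% of all loci. Treated against untreated knockouts, 12 of 24 were positive (median -0.01), with 2 higher (Emr1 and Ms4a7) and 1 lower (Clec7a) at an unadjusted p under 0.05 (4.76% and 3.46% of loci). In KO antimiR-21 against HET PBS 21 of 24 were positive (median 0.65, with 49.5% of all loci above 0), 11 were higher and 0 lower at an unadjusted p under 0.05 (5.04% and 3.01% of loci) and none passed after adjustment. Emr1, which encodes the macrophage surface protein F4/80, was at 8.16 CPM in HET PBS, 10.9 in KO PBS and 20.0 in KO antimiR-21. Ms4a7, a macrophage membrane gene, was at 1.10, 1.90 and 3.85 CPM. Each of these 2 genes, of 24 tested, was higher in all KO antimiR-21 libraries than in all KO PBS libraries, against 2.34% of all loci. Their edgeR adjusted p was 0.385 and 0.392.

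Relative to those markers, Fcrls separated the 3 groups, and Fcer1g and Fcgr3, the members that follow the marker sum most closely, did not. Per 100 CPM of macrophage markers, Fcrls was at 0.136, 0.229 and 0.169 CPM in HET PBS. It was at 0.715, 0.791, 0.815 and 0.368 in KO PBS and at 1.58, 1.88, 1.58 and 0.962 in KO antimiR-21. On this scale the lowest treated library lay above the highest KO PBS library. The order was the same when the joint locus of the marker Csf1r was included (0.0739 to 0.0995, 0.203 to 0.504 and 0.590 to 1.25). The ratio was set up with the values in view and was not tested. How many other loci separate on this scale was not counted, so the separation is not shown to be particular to Fcrls. Emr1 and Ms4a7, which are part of the sum, were also higher without overlap in treated than in untreated knockouts before scaling. Fcer1g per 100 CPM of markers was at 2.97 ± 0.280 (SD, n = 3), 2.53 ± 0.164 (n = 4) and 2.91 ± 0.399 (n = 4), and Fcgr3 at 1.44 ± 0.193, 1.63 ± 0.198 and 1.45 ± 0.115. For both, the groups overlapped. Fcgr2b divided by the sum of Fcgr3 and Fcgr4 was 8.28, 17.3 and 16.5 in HET PBS, 7.32 to 12.7 in KO PBS and 6.60 to 8.55 in KO antimiR-21. HET PBS replicate 1, the heterozygote with most macrophage markers, lay among the knockouts.

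**Figure D3:**
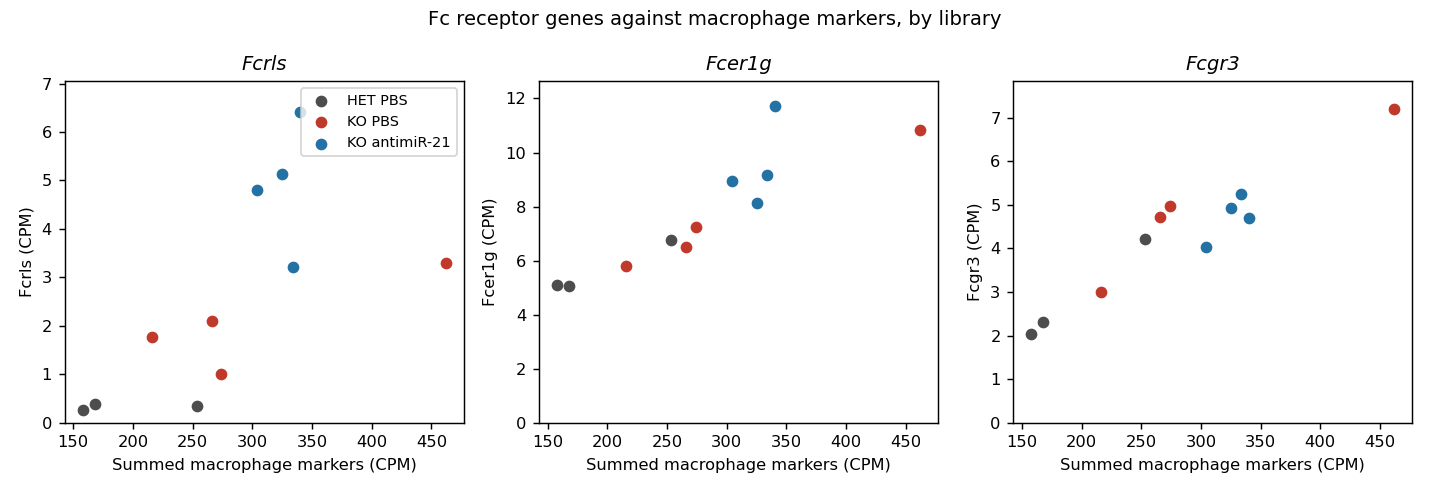
CPM of Fcrls, Fcer1g and Fcgr3 (vertical axes) against the summed CPM of 23 macrophage markers (horizontal axis, not from 0), 1 point per library. Fcgr3 and Fcer1g follow the sum across all groups, while the KO antimiR-21 libraries, at 304 to 340 CPM of markers, hold 3.21 to 6.41 CPM of Fcrls against 3.31 in the KO PBS library at 462.

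**Figure D4:**
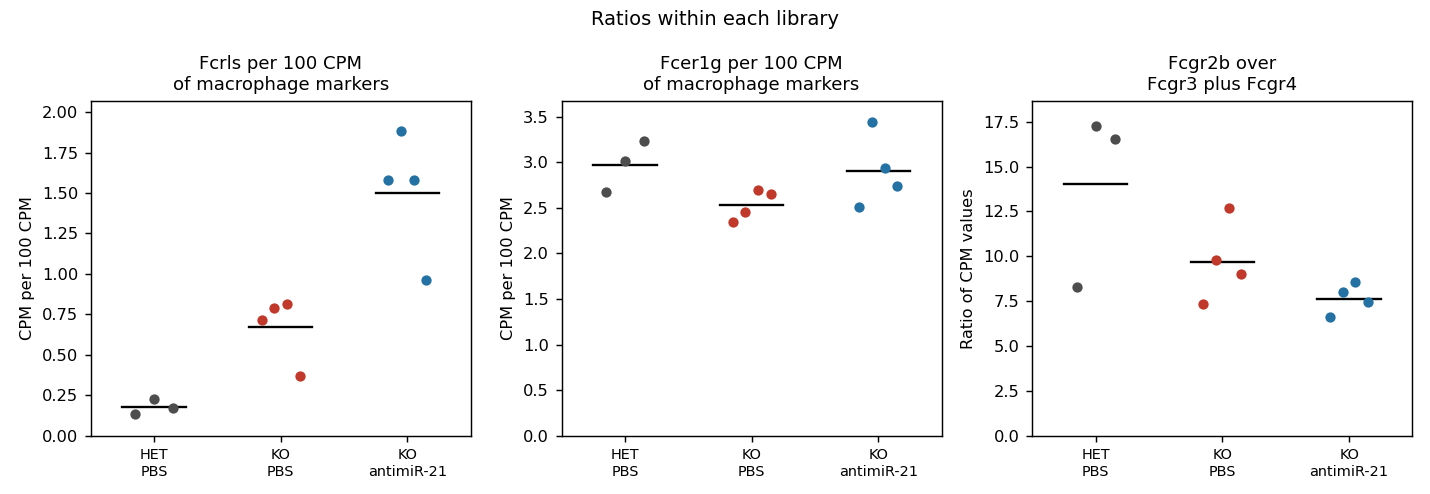
Ratios within each library by group: Fcrls and Fcer1g per 100 CPM of macrophage markers, and Fcgr2b divided by Fcgr3 plus Fcgr4. Points are libraries and lines group means. Fcrls per 100 CPM is at most 0.815 in KO PBS and at least 0.962 in KO antimiR-21, whereas the Fcer1g ratios of the groups overlap.

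Over the 11 libraries, log2 CPM of the summed markers went with that of Fcgr3 (Pearson r = 0.96) and Fcer1g (0.93) most closely, then with Fcrls (0.79) and Fcgr4 (0.57). Fcgr2b (0.28) and Fcgrt (0.19) followed it least among the positive values. Within the 8 knockout libraries, r with the markers was 0.89 for Fcgr3, 0.87 for Fcer1g and 0.53 for Fcrls, and Fcrls went with Fcgr4 at 0.84. These are descriptions over libraries that share groups, with no p. The 5 loci most like Fcrls, of 12400 with at least 1 CPM, were Rhbdl3 (r = 0.93), Pik3r5 (0.92), Gabra4 (0.91), Kirrel2 (0.90) and Cdkn1c (0.90). Pik3r5, a regulatory subunit of PI3-kinase gamma in leukocytes, was at 1.33 CPM in HET PBS, 3.19 in KO PBS and 4.71 in KO antimiR-21. Rhbdl3, the closest, was at 3.21, 5.52 and 6.19 CPM. Cdkn1c, which is on the list of podocyte markers, was at 30.1, 53.9 and 60.2 CPM, so these loci are not all leukocyte genes. Among the loci most like Fcer1g were Lpxn (0.97), Rac2 (0.95), Arhgap30 (0.94) and Neurl1a (0.94). Rac2 is a leukocyte small GTPase.

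Downstream of the activating receptors, 31 genes of Fc receptor signalling were tested. In KO PBS against HET PBS 24 had positive differences (median 0.32). Treated against untreated knockouts, 20 of 31 were positive (median 0.10, against 50.9% of all loci), and 1, Lcp2, was higher at an unadjusted p under 0.05 (4.76% of loci). In KO antimiR-21 against HET PBS 24 of 31 were positive (median 0.36, with 49.5% of all loci above 0). Of them, 12 had a higher level at an unadjusted p under 0.05 (5.04% of loci) and 0 a lower one (3.01%), and none passed after adjustment. Without overlap, 10 were higher and 1 lower (3.88% and 2.1% of loci). The lower one, named after its values were seen, was Prkcd, a protein kinase C, at 135 CPM in HET PBS and 126 in KO antimiR-21. Rac2 was at 3.63 ± 1.46, 6.89 ± 2.57 and 8.89 ± 1.54 CPM in HET PBS, KO PBS and KO antimiR-21. Pik3ap1, an adaptor for PI3-kinase, was at 4.43, 5.51 and 9.43 CPM, and Lcp2, the adaptor SLP-76, at 11.4, 10.5 and 13.3 CPM. The reads of the abundant joint locus Plcg1/Zhx3 cannot be assigned to its signalling gene.

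Of 13 tested genes of inhibitory (ITIM) signalling, 12, 10 and 12 had positive differences in the 3 comparisons in the order above, with medians of 0.30, 0.08 and 0.36. Siglece, an inhibitory sialic acid receptor of myeloid cells, was at 2.05, 2.67 and 5.40 CPM, and the KO antimiR-21 libraries lay above KO PBS without overlap (edgeR adjusted p = 0.400). In the same list the joint locus Cd72/Tesk1, named after its values were seen, lay below without overlap, at 69.07 to 70.96 CPM against 71.01 to 74.17 in KO PBS (adjusted p = 0.896). Over all loci 2.34% were higher and 1.95% lower without overlap. Sirpa, an inhibitory receptor for CD47, was at 137, 152 and 161 CPM. Clec12a, an inhibitory C-type lectin, was at 1.70, 2.37 and 3.33 CPM. A further list held gamma chain partners, ITAM adaptors and other leukocyte receptors and adaptors, so not all of its genes pair with the gamma chain. Of its 10 tested loci, 2 of them joint, 10 were positive in KO PBS against HET PBS (median 0.58, with 46.5% of all loci above 0). Only 2 of the 10 were positive in treated against untreated knockouts (median -0.26, with 50.9% of all loci above 0). The C-type lectin receptor Clec7a was at 2.42, 3.54 and 1.95 CPM, and Siglech, a marker of microglia and plasmacytoid dendritic cells, at 1.14, 1.38 and 0.600 CPM. The ITAM adaptor Tyrobp was at 5.07, 7.75 and 7.72 CPM.

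Fcrls is listed with other microglial genes, and the other genes of that list had smaller median differences. Of 19 tested genes 16, 10 and 15 were positive in the 3 comparisons, with medians of 0.26, 0.05 and 0.26. None passed after adjustment in any of them. Mertk, a receptor for apoptotic cells, was at 90.6, 82.4 and 99.5 CPM, and its partner ligand Gas6 at 421, 465 and 502 CPM. Treated against untreated knockouts, 1 gene of this list was higher without overlap (Mertk) and 1 lower (Siglech), against 2.34% and 1.95% of loci. Siglech was at 0.393 to 0.910 CPM in KO antimiR-21 and 1.15 to 1.88 in KO PBS (edgeR adjusted p = 0.334).

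Beside Fcgrt, 12 genes of its light chain and of albumin and IgG handling were tested, of which 4, 6 and 7 were positive, with medians of -0.03, 0.01 and 0.02. Lrp2 and Cubn, the endocytic receptors megalin and cubilin of the proximal tubule, were at 3418, 3194 and 2944 CPM and at 703, 624 and 717 CPM. Of 12 genes in the files from the list of other Fc receptors and Fc receptor-like genes, 4 were tested. They include Fcho1, which was listed but is not an Fc receptor. Trim21, a cytosolic Fc receptor, was at 13.3, 14.4 and 15.6 CPM, and Pigr, the polymeric immunoglobulin receptor, ran from 72.8 to 877 CPM, with group ranges that overlapped. Fcer1a, the IgE-binding chain that also uses Fcer1g, had 0 counts in all libraries.

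Markers of other cell types that can carry Fc receptors were also summed, and their part in the receptor results was not tested. Neutrophil markers summed to 17.0 to 25.2 CPM in HET PBS, 19.2 to 28.4 in KO PBS and 18.1 to 26.4 in KO antimiR-21, with 5 of 14 tested and the defining genes S100a8 and S100a9 under the filter. Most of that sum came from a single gene, Mpo, with group means of 15.95, 16.59 and 15.93 CPM. NK cell markers (2 of 10 tested) summed to at most 2.43 CPM and B cell markers (5 of 10 tested) to at most 5.58 CPM in any library. Dendritic cell markers (10 of 12 tested, most of the sum from MHC class II genes and Cd74) summed to 442 to 1179 CPM in HET PBS, 754 to 1271 in KO PBS and 731 to 1305 in KO antimiR-21. Endothelial markers, 12 of 12 tested, summed to 794 to 1208 CPM in HET PBS, 942 to 1028 in KO PBS and 944 to 1159 in KO antimiR-21. All 15 tubular injury markers were positive in KO PBS against HET PBS (median 1.27, with 46.5% of all loci above 0). Treated against untreated knockouts, 12 of 15 were negative (median -0.36, with 50.9% of all loci above 0). Their sums overlapped, at 2091 to 7950 CPM in KO PBS and 2729 to 3420 in KO antimiR-21. KO PBS replicates 1 and 2 (7950 and 4428) lay above all treated libraries, and replicates 3 and 4 (2091 and 2698) below them.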

How the data were processed

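Whole-kidney mRNA of 11 libraries in 3 groups was analysed. The deposited files hold estimated counts per gene, in steps of 0.5 and not normalized, per the file headers and values. The authors also deposited a log2 matrix, used only as an alternative. Libraries were made from 150 ng of RNA with an unstranded TruSeq kit, per the labels' protocols. The submitters' processing notes name STAR, HTSeq 0.5.4p5, limma and mm10 without their roles.

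Counts were rounded to whole numbers. Names with identical counts in all libraries (total at least 50) were joined, giving 1513 joint loci, a choice made after the files were examined. Loci passing filterByExpr (14380) were tested with edgeR 4.0.16 in R 4.3.3 (TMM, robust quasi-likelihood, all 11 libraries, two-sided, Benjamini-Hochberg at 0.05). The biological coefficient of variation was 0.215. The script was tested on simulated data. Alternatives were RLE scaling, DESeq2 1.42.0, limma-voom 3.58.1, no filter, rows as deposited, 2 groups only, Y-linked status (Ddx3y above 5 CPM), the replicate number, the log2 matrix, and leaving out each library.

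Members, lists and the naming rule were chosen with earlier results of these data known. The rule took all members, the 5 loci most correlated with Fcrls and with Fcer1g, and for each list up to 2 genes by level and 2 by p of KO antimiR-21 against KO PBS. S100a8, S100a9, Fcer1a, Fcho1, Prkcd, Cd72/Tesk1 and the histone loci are named besides. A few genes named by this rule are not reported here. Marker sums leave out joint loci, a choice made after the values were seen. Depth limits the precision of low genes such as Fcrls.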

Additional observations from a re-analysis of the deposited data

How the results depend on the processing

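In the 2 comparisons with KO antimiR-21, 262 of 280 recomputed member differences kept their direction and their side of the threshold. The causes of the others were not tested. In KO PBS against HET PBS members were not tested and no call of a member is given: Fcrls ranged from 2.25 to 2.81, and Fcgr4 from -0.38 to 0.36, above 0 in 7 of 20 alternatives. DESeq2 called 84, 126 and 74 loci in KO PBS against HET PBS, KO antimiR-21 against KO PBS and KO antimiR-21 against HET PBS, where edgeR called 0, 0 and 1. In KO antimiR-21 against KO PBS DESeq2 called 1 member, Fcrls (1.26), whose KO PBS values helped to choose the set. In KO antimiR-21 against HET PBS limma-voom called 0 loci and 0 members (Fcrls 3.76). With Y-linked status as a term the loci called were 3, 0 and 2. The authors' log2 matrix gave 1, 0 and 2 loci. Replicate numbers do not pair the libraries: correlations of same-numbered deviations ran from -0.444 to 0.629. With the replicate block the loci called were 2, 26 and 4, and Fcgr2b stood at 0.0061 in KO antimiR-21 against HET PBS.

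Leaving out each library gave 0 to 2 loci, 0 to 16 loci (16 without KO antimiR-21 replicate 3) and 0 to 4 loci (4 without KO PBS replicate 1), and, in the comparisons with KO antimiR-21, 0 members and 0 to 1 members. Fcrls in KO antimiR-21 against HET PBS ranged from 3.69 to 4.0, and kept its call in 4 of 11 cases. It was lost without any 1 HET PBS library, KO PBS replicate 2, or KO antimiR-21 replicate 1, 2 or 3. In KO antimiR-21 against KO PBS, Fcgr3 ranged from -0.25 to 0.16 and the Fcgr1 joint locus from -0.59 to 0.26, with the sign turned to 0.24 without KO PBS replicate 4 and to 0.12 and 0.26 without KO antimiR-21 replicates 2 and 4. In KO antimiR-21 against HET PBS, Fcgr2b ranged from -0.069 to 0.060 (0.03 and 0.02 without KO antimiR-21 replicates 1 and 4) and the Fcgr1 joint locus from -0.25 to 0.62.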

Other observations

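Other kidney and leukocyte genes were measured beside the Fc receptors, as values with no explanation. Of 10 tested dendritic cell markers all were positive in KO PBS against HET PBS (median 0.50) and 9 in KO antimiR-21 against HET PBS (median 0.51). Cd74, the invariant chain of MHC class II, ran from 214 to 650 CPM in HET PBS, 343 to 633 in KO PBS and 350 to 685 in KO antimiR-21, with overlap. Of 8 tested T cell markers 7 were positive in KO PBS against HET PBS (median 0.40) and 3 in KO antimiR-21 against KO PBS (median -0.16). Cd8a was at 2.28, 1.97 and 1.37 CPM in the 3 groups. All 9 tested podocyte markers were positive in KO antimiR-21 against HET PBS (median 0.35). All 11 tested proximal tubule markers were negative in KO PBS against HET PBS (median -0.28) and 8 in KO antimiR-21 against HET PBS (median -0.17). Of 5 tested mast cell and basophil markers (of 10 in the files), 5 of 6 immunoglobulin and plasma cell genes and 3 platelet markers, the median differences in KO antimiR-21 against KO PBS were 0.22, 0.20 and 0.15. The 0.22 is the value of Gata2. The 0.20 is that of the joint locus Ccdc117/Xbp1, whose reads cannot be assigned to Xbp1. No listed heavy or light chain gene of immunoglobulin was in the files. None of these markers passed after adjustment in edgeR in any of the 3 comparisons.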
